A study of Mus musculus with 7 samples.

Results

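Gene-end regions are merged intervals of CUT&RUN peaks that were found in all 6 libraries of the study and whose midpoint lies no more than 1000 bp from the start or finish of a protein-coding gene. There were 3389 of them, among 38215 merged regions with a peak in any library and 10887 with a peak in every library. They were chosen from measured values, the presence of a peak in each library, and from gene positions, so that presence and that position are not results. Of the 38215 regions, 28.5% had a peak in every library, and 23.1% of all 38215 lay at a gene end. Among the 10887, gene-end regions made up 31.1%, and 4316 regions lay farther inside a protein-coding gene and 3182 outside such genes. Of 21627 protein-coding genes, 3935 had an end at a gene-end region, or 18.2%.

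CUT&RUN uses an antibody to bring a nuclease to a bound protein, so that the DNA around it is cut out and sequenced. The 3 LEF1 and 3 TCF1 libraries came from wild-type mice with the transgenic P14 T cell receptor, from splenic CD8 T cells sorted as CD8+, Ly5.1+, CD44- and CD62L+, which are naive cells. The receptor is a transgene, so these cells model a single antigen specificity, and by their labels the groups differ in the antibody. An input control from another gate (CD44+, Ly5.1-) was not used here. Since no label ties a replicate to its own animal, the spread that each p-value rests on is that among libraries and may be technical.

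LEF1 and TCF1 (the product of Tcf7) are related HMG-box proteins that bind a short sequence and are known as partners of beta-catenin in Wnt signalling and as regulators of T cell identity. A gene's start is flanked by its promoter, where general factors such as NFY, SP/KLF and ETS proteins bind in many cell types. NFY binds the letters CCAAT, SP and KLF proteins bind GC-rich boxes, and ETS proteins bind sequences around GGAA.

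The peak lists differed in length, which bears on what can be present in all of them. On the chromosomes used, replicates 1, 2 and 3 listed 27654, 37632 and 23695 peaks for LEF1 and 25616, 22894 and 11418 for TCF1. TCF1 replicate 3 stood apart, with the shortest list and the lowest fold enrichments. Gene-end regions took 30.9% of its peaks against 9.41% to 15.3% of the other 5 lists. That share restates list length, since by the rule every list has peaks in all these regions, 3496 to 3622 of them. Without TCF1 replicate 3, 5165 gene-end regions with a peak in the other 5 libraries were found. Read depths are not given in the files. Of the marker genes of other cells, 0 of 14 B cell genes, 0 of 10 NK cell genes, 1 of 15 myeloid genes (Xcr1) and 1 of 10 erythroid genes (Tfrc, which dividing T cells also use) had a gene-end region. The defining B cell marker Pax5 and the myeloid marker Csf1r were among those with none, while 16 of 25 T cell identity genes had at least 1.

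The sequences shown first are those under the summits of the strongest gene-end regions, since they hold the letters that the strongest regions shared most often among those searched. Each is the 101 bases centred on the median summit of the 6 libraries, read 5′ to 3′ on the strand of the named gene, from RefSeq promoter sequence of GRCm38.p6. Capitals mark CCAAT (or ATTGG, its reverse complement) and the TCF/LEF letters CTTTGAT and CTTTGAA (or their reverse complements). The 6 best-ranked regions whose window fits in the 300 bases of promoter given are these.
Prr11, between Ska2 and Prr11, chr11:87108858-87108958, minus strand: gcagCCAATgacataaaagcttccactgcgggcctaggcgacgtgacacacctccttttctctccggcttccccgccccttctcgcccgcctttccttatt
Txndc16, chr14:45219493-45219593, minus strand: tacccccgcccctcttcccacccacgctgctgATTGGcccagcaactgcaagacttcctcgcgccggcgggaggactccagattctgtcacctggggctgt
Grcc10, chr6:124741175-124741275, minus strand: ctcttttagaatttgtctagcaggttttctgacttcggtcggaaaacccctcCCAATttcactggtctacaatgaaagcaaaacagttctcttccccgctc
Dusp10, chr1:184034253-184034353, plus strand: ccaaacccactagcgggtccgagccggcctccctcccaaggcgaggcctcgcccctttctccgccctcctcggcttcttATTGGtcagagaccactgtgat
Proser3, chr7:30552349-30552449, minus strand: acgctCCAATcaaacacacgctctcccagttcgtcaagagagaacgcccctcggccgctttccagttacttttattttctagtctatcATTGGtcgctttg
Sptlc2, chr12:87388407-87388507, minus strand: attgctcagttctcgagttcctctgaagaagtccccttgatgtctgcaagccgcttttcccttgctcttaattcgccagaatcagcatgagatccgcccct
All but the Sptlc2 window hold CCAAT or ATTGG, and none of the 6 holds the TCF/LEF letters.

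The best-ranked windows that do hold the TCF/LEF letters show the factors' own motif at gene starts, 4 of them together with CCAAT.
BC037704, between Slc25a28 and BC037704, chr19:43675044-43675144, plus strand: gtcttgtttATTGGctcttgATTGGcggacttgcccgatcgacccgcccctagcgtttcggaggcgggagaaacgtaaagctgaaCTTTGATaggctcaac
Akap13, chr7:75455292-75455392, plus strand: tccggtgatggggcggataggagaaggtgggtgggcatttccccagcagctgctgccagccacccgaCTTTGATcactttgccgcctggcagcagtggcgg
Pin4, chrX:102119223-102119323, plus strand: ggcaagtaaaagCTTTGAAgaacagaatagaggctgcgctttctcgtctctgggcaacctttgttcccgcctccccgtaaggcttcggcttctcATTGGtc
Ckap2l, chr2:129297219-129297319, minus strand: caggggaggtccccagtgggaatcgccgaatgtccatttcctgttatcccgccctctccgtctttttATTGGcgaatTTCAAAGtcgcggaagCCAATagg
1190007I07Rik, chr10:82623307-82623407, minus strand: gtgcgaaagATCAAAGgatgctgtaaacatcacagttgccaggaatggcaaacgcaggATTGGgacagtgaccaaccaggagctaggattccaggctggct
Zfp143, chr7:110061488-110061588, plus strand: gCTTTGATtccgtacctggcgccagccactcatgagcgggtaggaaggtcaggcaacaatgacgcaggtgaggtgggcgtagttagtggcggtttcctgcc
These windows were chosen for the letters, so their presence here is no result; their share among all windows is given with the motifs.

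The strength of a region is described by the authors' fold enrichment at its strongest summit, a ratio of signal to local background. The region between Ska2, a mitotic spindle protein, and Prr11 (chr11:87108496-87109608) ranked first, with fold enrichments of 176, 234 and 169 in LEF1 replicates 1, 2 and 3 and 186, 188 and 104 in TCF1 replicates 1, 2 and 3. The region at Tpm4, a tropomyosin of the actin cytoskeleton (chr8:72134831-72137467), had fold enrichments of 139, 205 and 127 for LEF1 and 135, 133 and 74.3 for TCF1. This region covered the start and its midpoint was within 1000 bp of it, but its median summit lay 1636 bp downstream of the start. Dusp10, a phosphatase that acts on MAP kinases, had 115, 152 and 102 for LEF1 and 101, 103 and 57.4 for TCF1 over a region of 3335 bp (chr1:184033589-184036923). In each of these 3 regions LEF1 replicate 2 was the highest library and TCF1 replicate 3 the lowest, which is also the order of their list lengths. Map3k14, the kinase NIK of the non-canonical NF-kappaB pathway (chr11:103265679-103268094), had fold enrichments of 102, 144 and 102 for LEF1 and 105, 102 and 56.1 for TCF1. The other 11 of the 15 best-ranked regions were nearest to Rnf5, Khsrp, Txndc16, Grcc10, Zbtb20, Olfr9, Otulin, Cd101, Cars, Proser3 and Sptlc2. In all 15 the mean rank was within the strongest 0.953% of the 10887 regions found in every library. The regions at Olfr9, an olfactory receptor, and Otulin, a deubiquitinase, lay at the gene's finish and not its start. Olfr9 was the only 1 of 1106 olfactory receptor genes with a gene-end region.

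**Figure D1:**
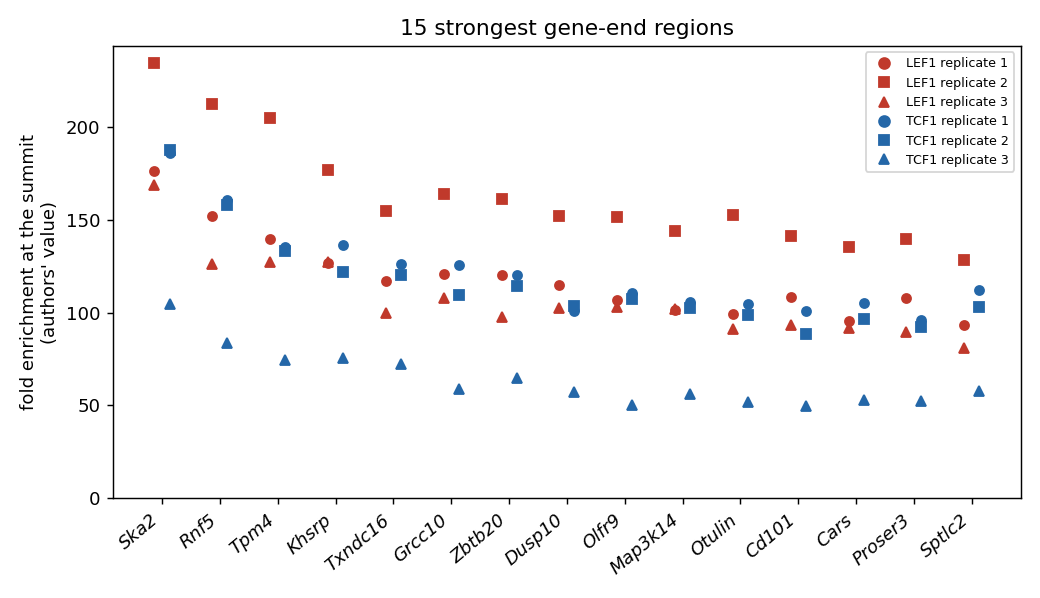
Fold enrichment at the summit (authors' value, linear axis) of the 15 best-ranked gene-end regions, 1 point per library, circles, squares and triangles for replicates 1, 2 and 3 of LEF1 (red) and TCF1 (blue). LEF1 replicate 2 is the highest and TCF1 replicate 3 the lowest point of every region, from 234 down to 104 at Ska2.

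Gene-end regions lay at starts far more often than at finishes. A strand was known for the nearest gene of 2800 regions, and the nearest end was the start in 2659, or 95.0% (95% Clopper-Pearson interval 94.1% to 95.7%), and the finish in 141. Of the 141 finishes, 24 had the annotated start of any gene within 1000 bp of the summit, though not every gene had a listed start. Without TCF1 replicate 3 the share of starts was 93.7%. These intervals, and all others on shares below, cover counting error only.

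Summits lay just upstream of the start. Of 3304 regions on chromosomes with annotated starts, 2667 (80.7%) had their median summit within 1000 bp of the start of any gene, at a median of -90 bp, negative being upstream, with quartiles of -162 and -20 bp. Starts were listed for only 17273 of the 21627 protein-coding genes, and the nearest gene of 589 gene-end regions had none listed. More summits may thus lie near a start than were counted. The last 250 bp before the start held 1784 of these 2667 summits, or 66.9%, against 421 in the 250 bp that follow it, 301 farther upstream and 161 farther downstream. By library the median was -95, -90 and -93 bp in LEF1 replicates 1, 2 and 3 and -90, -89 and -91 bp in TCF1, which did not differ beyond the spread between libraries (exact permutation test over the 20 assignments of 3 and 3 libraries, two-sided p = 0.3, the smallest possible being 0.1). The share of summits upstream of the start was 78.2%, 78.3% and 78.2% for LEF1 and 77.4%, 77.2% and 76.8% for TCF1. The 2 ranges were apart, and their means differed by 1.09 percentage points, with the smallest p this design allows (exact permutation test, two-sided p = 0.1; 0.133 after Benjamini-Hochberg adjustment over the 8 LEF1 against TCF1 comparisons). Without TCF1 replicate 3 the median over regions was -78 bp.

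**Figure D2:**
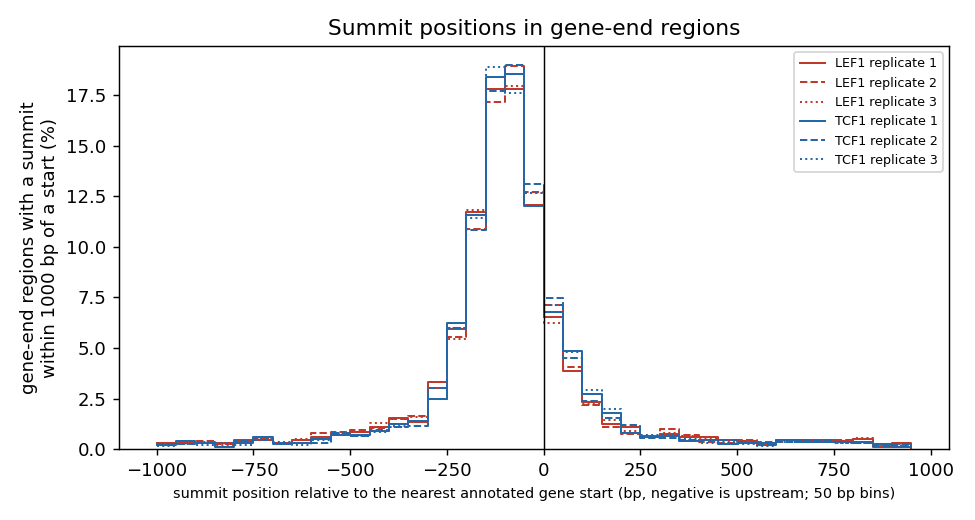
Share (%, y axis) of the 2667 gene-end regions with a median summit within 1000 bp of a start, by the position of the summit relative to the nearest annotated gene start (bp, 50 bp bins, negative is upstream), 1 line per library, LEF1 in red and TCF1 in blue. All 6 lines are highest between -150 and -50 bp, upstream of the start, and run close together.

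A related measure, the share of summits that lay inside the gene whose end was nearest, was 32.7%, 31.7% and 32.6% in the LEF1 libraries and 33.9%, 34.3% and 34.6% in the TCF1 libraries. The means were 32.3% ± 0.572 and 34.2% ± 0.345 (SD, n = 3 each), and LEF1 minus TCF1 was -1.93 percentage points with no overlap (exact permutation test, two-sided p = 0.1, the smallest possible).

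The 6 libraries placed their summits close together. The spread between the 6 summits of a region had a median of 54 bp (quartiles 28 and 119 bp), and all 6 fell within 20 bp in 543 regions, or 16.0%. At the 6 regions named for the smallest spread, every library listed the same summit base. They were at Proser3, Stip1, a co-chaperone of HSP70 and HSP90, Mmd, Slc25a42, N4bp2l2 and Cd8b1, the CD8 beta chain. Ties in spread were ordered by strength before the 6 were taken, so weaker regions with the same spread may be left out. The Cd8b1 region (chr6:71321636-71323003) had fold enrichments of 94.5, 115 and 96.6 in LEF1 replicates 1, 2 and 3 and 105, 106 and 54.5 in TCF1. The largest spread was 3398 bp, in a weak region at S1pr1 (chr3:115709333-115713343), the receptor that lets lymphocytes leave lymphoid organs, with fold enrichments from 5.83 to 19.3. Rasgrp2, Ap3m2, St8sia4, Ddit3 and Prmt5 followed with 1945, 1546, 1431, 1425 and 1295 bp. Between pairs of libraries the median summit distance was 14 to 19 bp within a factor and 16 to 21 bp between factors, with means of 16.0 and 18.3 bp (exact permutation test, one-sided p = 0.1, the least that its 10 arrangements can give).

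Most gene-end regions were compact. The merged width had a median of 669 bp (quartiles 516 and 913 bp, range 206 to 4011 bp), and 3043 regions (89.8%) had 1 peak in each library. The widest were at S1pr1 (4011 bp), Ap3m2 (3996 bp), St6gal1 (3988 bp), Tspoap1 (3913 bp), Tob2 (3394 bp), Kdm2b (3366 bp), Dusp10 (3335 bp) and Dnaja1 (3176 bp). The widest were not all strong: the mean strength rank ran from 0.606% at Dusp10 to 88.3% at S1pr1, where 0 is the strongest and 100 the weakest of the 10887 regions. The median peak width by library was 483, 586 and 495 bp for LEF1 replicates 1, 2 and 3 and 574, 529 and 321 bp for TCF1, with means of 521 ± 56.3 and 475 ± 135 bp (SD, n = 3 each). This difference was within the spread (exact permutation test, two-sided p = 0.8), and it turned to -37.8 bp without TCF1 replicate 3.

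At the limit of 1000 bp, the members just inside were at Car2, Rap1a and Tob1, at 1000, 999.5 and 996 bp, and had mean strength ranks of 58.5%, 27.0% and 39.0%. The regions just outside were at Cacul1, Rasl11b and Ehd1, at 1001.5, 1003 and 1005 bp, with mean ranks of 90.1%, 39.9% and 64.8%.

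Some regions lay at the ends of several genes. The ends of 1 gene lay within 1000 bp of 2734 regions, of 2 genes at 645 and of 3 or more at 10, so that 19.3% had several genes. Of the 645 pairs, 280 were divergent starts, 116 other pairs of starts, 101 a start and a finish and 2 both finishes, and in 146 a strand was not in the table. Another gene end lay within 1000 bp of the nearest end of 19.7% of the regions (18.4% to 21.1%), against 14.6% of all 43254 protein-coding gene ends. For starts alone the shares were 20.0% and 15.4%. Regions with ends of 3 genes included those at Bysl, Gm20517 and Med20, at Nup62, Il4i1b and Atf5, and at Shld3, Trappc13 and Trim23. Fold enrichment at the Nup62 region (chr7:44815632-44816352), named for a nuclear pore protein, was 34.1, 44.7 and 31.9 for LEF1 and 40.7, 36.6 and 20.1 for TCF1. The median rank of regions with several genes minus that of regions with 1 gene was 2.402, 3.42 and 2.38 points in LEF1 replicates 1, 2 and 3 and -1.02, -0.569 and -2.53 points in TCF1. The factors thus went opposite ways, and the mean of 0.680 points over the 6 libraries pools them (exact sign-flip permutation test, two-sided p = 0.5625). The means of 2.73 ± 0.593 and -1.37 ± 1.02 points (SD, n = 3 each) differed by 4.11 points without overlap (exact permutation test, two-sided p = 0.1, the smallest possible). This comparison was made only because the signs were opposite in all libraries. The lack of overlap and this p follow from that choice and are no further result.

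Gene-end regions lay far apart. The gap to the nearest region found in all libraries had a median of 32286 bp, against 10039 bp for the other regions, and neighbouring gene-end regions lay a median of 184265 bp apart. Only 98 neighbouring pairs were within 5000 bp, 39 of them with the same nearest gene. The closest pair, 99 bp apart, was at S1pr1 (chr3:115709333-115713343 and chr3:115713443-115716353), with mean ranks of 88.3% and 39.3%. Next came Sart1 and Tsga10ip at 153 bp, then pairs at Rcbtb1, Pik3r5, Rasal3 and between Gm10840 and Limd2 at 165, 179, 186 and 201 bp.

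Both ends of a gene held a region at 121 genes, with separate regions at 87. The longest were Atp9b (199941 bp), Ppp2r5e (146775 bp), Vcl (104294 bp), Atf7 (99519 bp), Ccnd3 (94639 bp) and Polr1a (70383 bp). At Polr1a, the largest subunit of RNA polymerase I, the mean ranks of the regions at the ends were 90.7% and 5.75%. Cd3d, a chain of the T cell receptor complex, had fold enrichments at its start (chr9:44981212-44982293) of 25.2, 30.9 and 22.0 for LEF1 and 20.2, 17.5 and 8.79 for TCF1, and at its finish (chr9:44985332-44987752) of 37.4, 53.5 and 36.4 for LEF1 and 49.6, 44.3 and 22.0 for TCF1. The library ranks were better for LEF1 at the start and for TCF1 at the finish. Klf2, a factor that keeps T cells quiescent, showed the reverse arrangement, with fold enrichments at its start (chr8:72318574-72319483) of 17.4, 27.8 and 18.5 for LEF1 and 35.6, 28.8 and 17.2 for TCF1, and at its finish (chr8:72321377-72323199) of 15.1, 21.1 and 14.1 for LEF1 and 11.6, 11.0 and 7.01 for TCF1. Cd3d and Klf2 were singled out after their values were seen.

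The factors were next compared in how they ranked gene-end regions among all 10887 regions of every library, which puts lists of unequal length on the same scale. The median rank of gene-end regions was 64.5%, 64.8% and 62.6% in LEF1 replicates 1, 2 and 3 and 56.1%, 55.4% and 52.9% in TCF1, so that gene-end regions stood higher among the TCF1 peaks. The means were 63.95 ± 1.22 and 54.8 ± 1.69 (SD, n = 3 each), a difference of 9.17 points without overlap (exact permutation test, two-sided p = 0.1, the smallest possible; 0.133 after adjustment over the 8 comparisons). Leaving out each library in turn gave 8.03 to 9.76. The strongest 10% of regions lay at gene ends in 18.7%, 19.1% and 19.1% of cases in the LEF1 libraries and 22.4%, 23.1% and 25.2% in the TCF1 libraries, and the weakest 10% in 62.0%, 63.7% and 59.5% and in 39.6%, 38.8% and 38.2%. Gene-end regions made up 31.1% of all 10887. In every library of both factors they thus fell below that share among the strongest 10% and above it among the weakest 10%.

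Region by region, the ranks of the 3 TCF1 libraries were all better than those of the 3 LEF1 libraries at 1153 gene-end regions (34.0%), against a background of 17.5% over all 10887 regions. The 3 LEF1 ranks were all better at 305 (9%), against a background of 17.4%. Among the other 7498 regions the shares were 10.03% and 21.2%. Without TCF1 replicate 3 the gene-end shares were 40.3% and 11.8%, and the other shares 13.4% and 24.8%.

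The largest difference toward TCF1 was at Rnf44, a RING finger gene (chr13:54693657-54694786), with fold enrichments of 11.9, 12.5 and 11.4 in LEF1 replicates 1, 2 and 3 and 71.0, 69.2 and 40.3 in TCF1. Its mean rank was 87.1% in the LEF1 libraries and 3.07% in the TCF1 libraries, and the lowest TCF1 value was over the highest LEF1 value. Frat1, which binds GSK3 in the Wnt pathway (chr19:41829396-41830086), had fold enrichments of 8.6, 10.5 and 6.12 for LEF1 and 36.8, 31.99 and 16.9 for TCF1. Eif3b, Gnb2, BC005537 and Cenpp followed. The largest toward LEF1 was at the finish of Cbfb, the partner of RUNX proteins (chr8:105217804-105218360), with fold enrichments of 24.4, 34.3 and 26.6 for LEF1 and 17.3, 12.4 and 5.83 for TCF1. Plac8 (chr5:100571890-100572594) had 44.5, 49.5 and 33.1 for LEF1 and 17.5, 15.1 and 13.8 for TCF1. Ccnf, Agap2, Tnpo1 and Klhdc9 followed. These regions were chosen by this difference, so their values are a description.

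The summit windows of the 3 regions of each kind with the largest difference and a window in the promoter sequence are shown to set the letters beside the ranks, with the same capitals as above.
Rnf44 (TCF1 stronger), chr13:54694075-54694175, minus strand: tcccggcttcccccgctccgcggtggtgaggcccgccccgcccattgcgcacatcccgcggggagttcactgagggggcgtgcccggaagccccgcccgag
Frat1 (TCF1 stronger), chr19:41829760-41829860, plus strand: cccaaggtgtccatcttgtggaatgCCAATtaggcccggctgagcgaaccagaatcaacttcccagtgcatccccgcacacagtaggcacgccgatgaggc
Gnb2 (TCF1 stronger), chr5:137533410-137533510, minus strand: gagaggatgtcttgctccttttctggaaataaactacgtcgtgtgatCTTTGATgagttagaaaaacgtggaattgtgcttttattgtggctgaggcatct
Plac8 (LEF1 stronger), chr5:100572205-100572305, minus strand: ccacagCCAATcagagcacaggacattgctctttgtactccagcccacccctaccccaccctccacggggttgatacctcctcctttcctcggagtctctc
Ccnf (LEF1 stronger), chr17:24251419-24251519, minus strand: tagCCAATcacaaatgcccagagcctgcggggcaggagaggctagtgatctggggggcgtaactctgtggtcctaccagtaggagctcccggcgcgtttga
Klhdc9 (LEF1 stronger), chr1:171360784-171360884, minus strand: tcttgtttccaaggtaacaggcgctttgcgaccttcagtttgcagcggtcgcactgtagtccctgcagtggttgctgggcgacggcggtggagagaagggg
The TCF/LEF letters stand in the Gnb2 window alone, and CCAAT in those of Frat1, Plac8 and Ccnf.

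Compared with the other 7498 regions of every library, gene-end regions were weaker in rank. The median rank was 64.5%, 64.8% and 62.6% for gene-end regions in LEF1 replicates 1, 2 and 3 against 44.3%, 44.3% and 45.02% for the others, and 56.1%, 55.4% and 52.9% against 47.2%, 47.6% and 48.9% in TCF1. The mean difference was 13.1 points (3.95 to 20.5, weaker at gene ends in 6 of 6 libraries; exact sign-flip permutation test, two-sided p = 0.03125, the smallest possible, 0.0352 adjusted over 9 comparisons). It rested in part on TCF1 replicate 3: with regions of the other 5 libraries it was 2.59 points, with a mean of 6.98 in the LEF1 libraries and -3.98 in the TCF1 libraries, and with lists of equal size it was 5.85. Neither passed the threshold (exact sign-flip permutation tests, two-sided p = 0.375 and 0.125). The difference was larger for LEF1, 19.4 ± 1.64 against 6.85 ± 2.57 points for TCF1 (SD, n = 3 each), without overlap (exact permutation test, two-sided p = 0.1, the smallest possible).

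The median peak width at gene ends minus that elsewhere was -82.5, -65 and -74 bp in LEF1 replicates 1, 2 and 3 and -2, -4 and -6 bp in TCF1, so gene-end peaks were narrower mainly in the LEF1 libraries. The mean difference was -38.9 bp (6 of 6 libraries; exact sign-flip permutation test, two-sided p = 0.03125), and it turned to 3.4 bp with regions of the 5 libraries without TCF1 replicate 3 and was -14.1 bp with lists of equal size. Neither passed the threshold (exact sign-flip permutation tests, two-sided p = 0.875 and 0.34375). Summits of a library lay a median of 13, 13 and 13 bp (LEF1) and 13, 13 and 17 bp (TCF1) from those of the other libraries at gene ends, and 11, 10 and 12 and 11, 12 and 14 bp elsewhere. That mean difference of 2 bp was past the threshold (exact sign-flip permutation test, two-sided p = 0.03125), and it was 0.333 bp with lists of equal size, where it did not pass (exact sign-flip permutation test, two-sided p = 0.5).

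**Figure D3:**
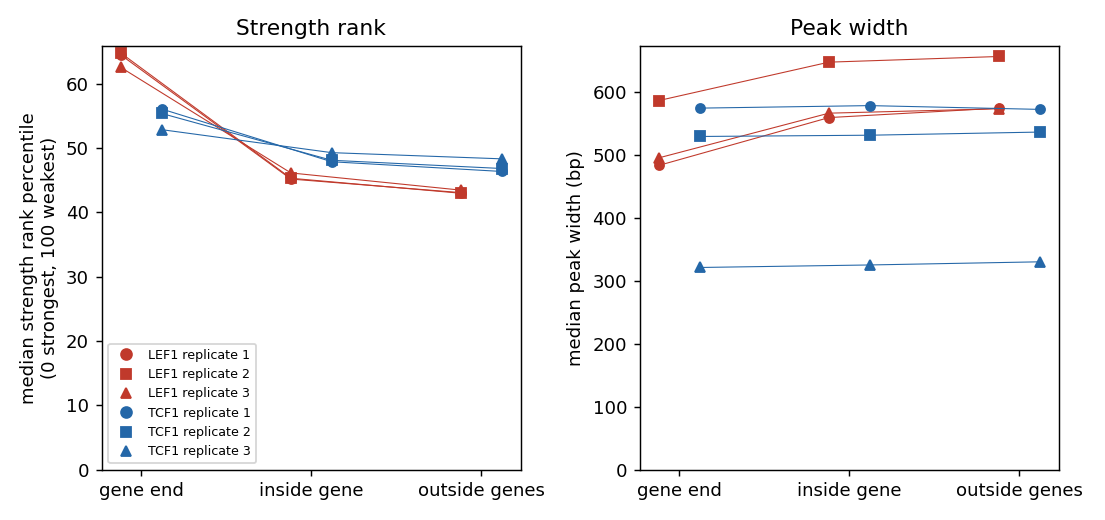
Median strength rank (left, percentile, 0 strongest and 100 weakest) and median peak width (right, bp) of gene-end regions, regions inside genes and regions outside genes, 1 point per library, circles, squares and triangles for replicates 1, 2 and 3, LEF1 in red and TCF1 in blue. LEF1 ranks lie above TCF1 ranks at gene ends (62.6% to 64.8% against 52.9% to 56.1%) and below them outside genes.

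Within the gene-end regions, the median rank of starts minus that of finishes was 15.1 points on average (5.74 to 21.5, above 0 in 6 of 6 libraries). Its p was the smallest possible and did not pass after adjustment (exact sign-flip permutation test, two-sided p = 0.03125, 0.0536 adjusted over the 12 comparisons within gene-end regions). With the 5 libraries without TCF1 replicate 3 the direction turned, to -1.57 points (-10.1 to 3.67).

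The letters under the summits were counted next, by strength. Of the gene-end regions, 1627 had a 101 bp summit window inside the promoter sequence. CCAAT, on either strand, was in 661 windows, or 40.6% (38.2% to 43.1%), against 18.3% of all protein-coding promoters at the same positions. From the strongest to the weakest 4 equal groups by rank its share was 50.9%, 45.2%, 36.2% and 30.2%. The median rank was 51.1% with CCAAT and 63.6% without, a difference of -12.5 points (-14.3 to -10.7, toward stronger in 6 of 6 libraries). This too had the smallest p possible and did not pass after adjustment (exact sign-flip permutation test, two-sided p = 0.03125, 0.0536 adjusted), as held for every motif difference below with that p. Around the summit its density was highest 25 to 50 bp downstream, at 7.01 per 1000 bp, and fell to 0.661 at 175 to 200 bp downstream and 1.24 at the same distance upstream. Only promoter sequence could be read, so these far distances drew on 10.6 and 11.3 kb, against 40.7 kb at the highest density. They also differ in position relative to the start, and no value of all promoters was set beside these densities.

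The TCF/LEF letters CTTTGAT and CTTTGAA, on either strand, were in 58 windows, or 3.56% (2.72% to 4.58%), against 2.54% of all protein-coding promoters at the same positions. By the same 4 groups the share was 6.39%, 3.44%, 2.71% and 1.72%. The median rank was 37.9% with the letters and 59.4% without, a difference of -21.4 points (-24.9 to -16.9, toward stronger in 6 of 6 libraries; exact sign-flip permutation test, two-sided p = 0.03125). The form ending in T was in 2.15% of windows against 1.09% of all promoters, and the form ending in A in 1.48% of both. TCF/LEF and CCAAT letters shared 23 windows, and 931 had neither. Over whole promoters of 300 bases, the TCF/LEF letters were in 7.57% of the 3433 promoters at gene-end regions and 7.61% of the 17611 others, and in 8.65% of all 32851 promoters of the table.

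The ETS letters CCGGAAG were in 8.05% of windows against 4.12% of all protein-coding promoters at the same positions, and the SP/KLF letters GGGCGGG in 31.2% against 16.9%. These went the other way by strength: the ETS share was 6.14%, 6.63%, 8.87% and 10.6% from the strongest to the weakest group, and the median rank with it minus that without was 11.4 points (8.40 to 13.9; exact sign-flip permutation test, two-sided p = 0.03125). For the SP/KLF letters it was 4.05 points (-0.886 to 8.46; exact sign-flip permutation test, two-sided p = 0.0625). RUNX letters TGTGGTT were in 1.23% against 1.53%, CREB/ATF letters TGACGTCA in 1.29% against 0.897% and E-box letters CACGTG in 4.86% against 2.93%. Without TCF1 replicate 3 the differences were -12.4 points for TCF/LEF, -13.0 for CCAAT and 8.57 for ETS. Base composition moved with these shares: promoters at gene-end regions had a median GC content of 61.3% against 55.3% in the others, and a CpG observed to expected ratio of 0.817 against 0.470. Its part in the letter counts was not tested.

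By factor, windows of regions where TCF1 ranked stronger had a median GC content of 64.4% (573 windows) against 56.4% where LEF1 did (145) and 59.4% where the groups overlapped (909). SP/KLF letters were in 38.0% of the first (34.1% to 42.2%), 19.3% of the second (13.2% to 26.7%) and 28.8% of the third (25.9% to 31.9%). The TCF/LEF letters were in 2.97%, 3.45% and 3.96%, and CCAAT in 38.2%, 40.7% and 42.1%, each with intervals that overlap between the 3 kinds. These shares are a description, since regions of 1 library set are not independent replicates.

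**Figure D4:**
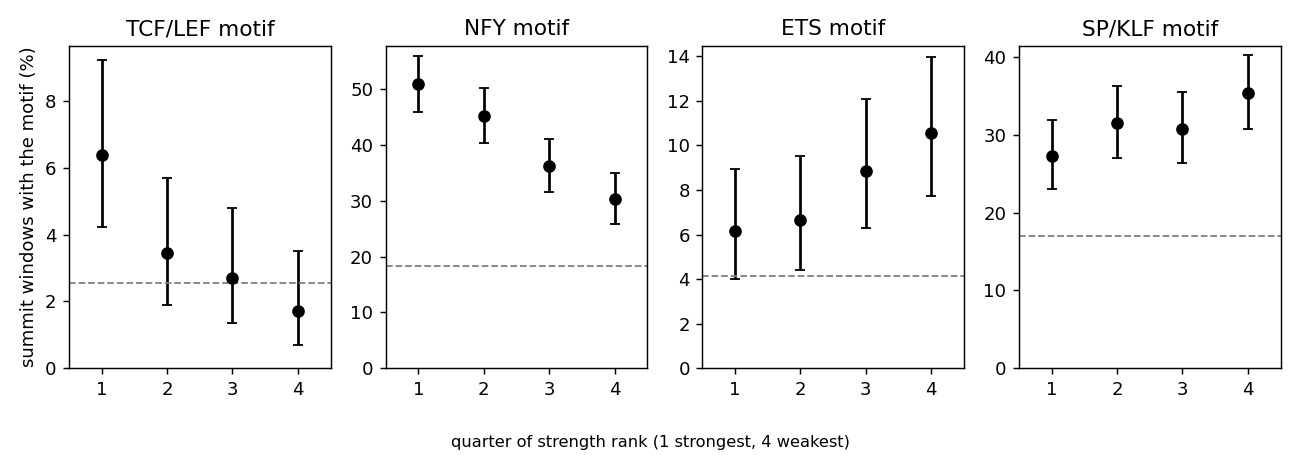
Share of summit windows (%) that hold the TCF/LEF, NFY (CCAAT), ETS or SP/KLF letters, in 4 equal groups of windows by strength rank (1 strongest, 4 weakest), with 95% Clopper-Pearson intervals; the dashed line is the share of all protein-coding promoters at the same positions. TCF/LEF and NFY shares fall from 6.39% to 1.72% and from 50.9% to 30.2%, and ETS rises from 6.14% to 10.6%.

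Gene groups are given as the number of members with an end at a gene-end region, beside the 18.2% of all protein-coding genes. A gene with several regions was represented by its best-ranked one alone, in the ranks and in the factor counts of every list. Of 25 T cell identity genes, 16 had a region (64%), and 13 of 22 genes typical of naive or stem-like cells (59.1%). The median rank of the regions was 29.0% and 39.3% in these lists, against 60.1% over all gene-end regions. Taking the best region per gene pulls the list medians toward strong ranks, so the 2 kinds of median are not alike. Cd3d and Klf2 count as TCF1 stronger here, though their regions at the other end ranked better for LEF1. Of the 16 T cell identity regions, 4 were TCF1 stronger and 3 LEF1 stronger, and of the 13 regions of naive or stem-like cells 2 and 3, beside 34.0% and 9% of all gene-end regions. After Cd8b1, the strongest T cell identity member was Tcf7, the gene of TCF1 itself (chr11:52283104-52284704), with fold enrichments of 58.2, 84.4 and 61.9 for LEF1 and 58.6, 55.0 and 30.8 for TCF1. Txk, a Tec family kinase of T cells (chr5:72752027-72753266), had 70.1, 94.8 and 67.2 for LEF1 and 67.0, 60.5 and 30.4 for TCF1. Ccr7, the receptor that guides naive T cells to lymph nodes (chr11:99154430-99155606), had 58.2, 83.5 and 49.7 for LEF1 and 53.4, 46.8 and 25.6 for TCF1. Txk, Ccr7 and Ltb ranked better in all 3 LEF1 than in all 3 TCF1 libraries, and Klf2 and Bach2 the other way. Bach2 and Ltb were weak, at mean ranks of 88.2% and 88.4%. Effector and exhaustion genes, which naive cells largely keep silent, had a region at 11 of 28 (39.3%), led by Tigit, an inhibitory receptor (chr16:43663926-43664635), with 67.7, 98.5 and 55.1 for LEF1 and 70.4, 72.3 and 30.3 for TCF1. Cytokine receptors had one at 8 of 21, led by a region at the finish of Il6ra.

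Of 26 Wnt pathway genes, 11 had a region (42.3%), and 7 of these regions ranked better in every TCF1 than in every LEF1 library, against 1 the other way, where all gene-end regions gave 34.0% and 9%. Znrf3, which removes Wnt receptors from the surface (chr11:5444652-5445257), had fold enrichments of 46.6, 57.2 and 39.9 for LEF1 and 50.8, 46.4 and 29.9 for TCF1. Gsk3b, a kinase that marks beta-catenin for destruction (chr16:38088295-38089799), had 39.6, 55.4 and 37.1 for LEF1 and 46.0, 43.3 and 23.5 for TCF1. Csnk1a1, Tle4, Frat2, Frat1 and Tle1 were the other 5 on the TCF1 side, and Rnf43, at its finish, was the 1 on the LEF1 side.

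Housekeeping groups differed in how many regions ranked better for TCF1, read against the 34.0% TCF1 stronger and 9% LEF1 stronger among all gene-end regions. Cytosolic ribosomal protein genes had a region at 36 of 85 (42.4%), 19 of them TCF1 stronger and 0 LEF1 stronger. Translation factors had 22 of 71, with 11 and 0, oxidative phosphorylation genes 25 of 95, with 12 and 1, and ubiquitin-specific proteases 17 of 49, with 9 and 1. The region at the start of Rpl18, a protein of the large ribosomal subunit (chr7:45715059-45715643), had fold enrichments of 42.4, 60.8 and 39.1 for LEF1 and 54.2, 49.7 and 26.9 for TCF1. RNA polymerase II and Mediator subunits had 18 of 42, with 7 and 0, DNA repair and replication genes 18 of 40, with 6 and 1, and proteasome subunits 15 of 31, with 5 and 5, which put the TCF1 side near the share of all gene-end regions. Splicing factors had 21 of 40, with 5 and 2, and mitochondrial ribosomal proteins 23 of 78, with 6 and 5, which put it below that share. Clock genes had 7 of 16, with 2 and 1, led by a region shared by Dbp and Car11 at a mean rank of 1.85%. Of the zinc finger genes named Zfp, 81 of 397 (20.4%) had a region, close to all genes, and liver and neuron genes 0 of 20.

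Histone genes had more regions on the LEF1 side, at a median rank of 36.2%. A region was found at 33 of 75 histone genes, in 21 regions because neighbouring genes share them, and 8 of the 21 were LEF1 stronger against 2 TCF1 stronger, beside 9% and 34.0% of all gene-end regions. The region shared by H2bc9 and H3c7 (chr13:23543181-23545105) had fold enrichments of 79.4, 101 and 69.0 for LEF1 and 64.5, 57.7 and 31.7 for TCF1. H2az2, a histone variant gene (chr11:6443570-6445002), had 67.9, 100 and 69.8 for LEF1 and 63.2, 59.8 and 31.7 for TCF1. Reads of near-identical histone and ribosomal gene copies can be split between them, which makes their fold enrichments uncertain.

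**Figure D5:**
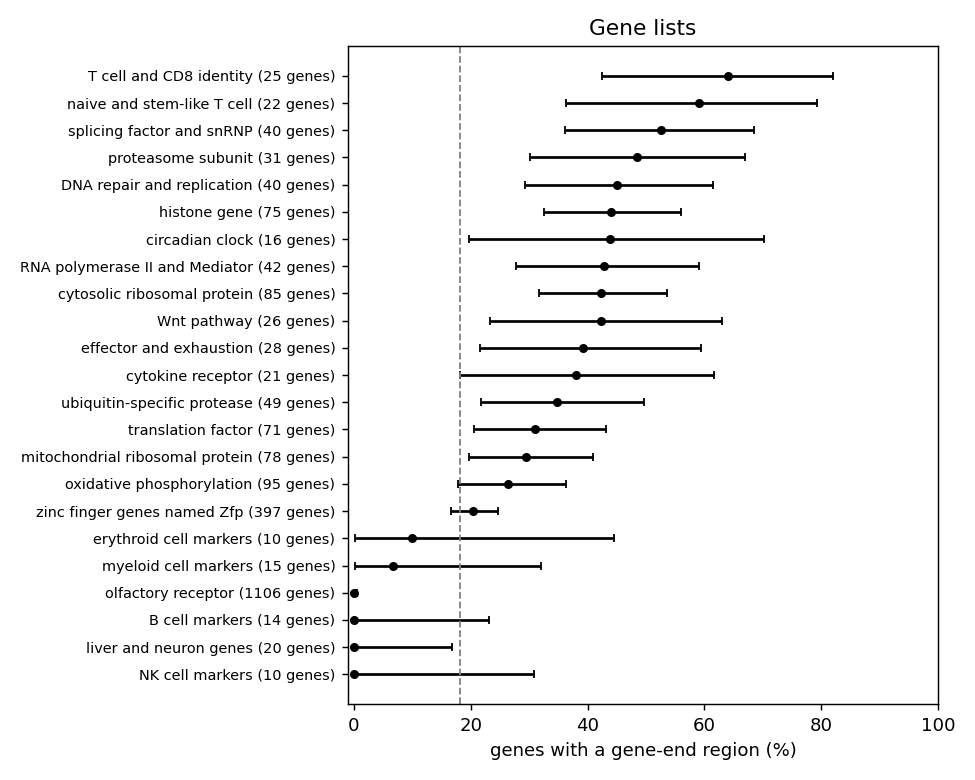
Share of each list's genes (%) with an end at a gene-end region, with 95% Clopper-Pearson intervals; the dashed line is the 18.2% of all protein-coding genes. T cell identity genes are at 64% and genes of naive T cells at 59.1%, and B cell, NK cell and liver and neuron genes are at 0.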

How the data were processed

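Groups and replicate numbers came from the sample titles. The submitters' processing notes name MACS3 3.0.3, Bowtie2 2.4.4 and Trim Galore 0.6.6, among others, and the build GRCm38.p6. The sources used here do not give the options or control of the peak calling. The authors deposited 1 peak list per library, with a fold enrichment (ratio), a p-value and a q-value as −log10, a score made from the q-value, and a summit position. The smallest −log10 q was 2.00 to 2.06. These values were used within a list, and strength was compared as rank among the 10887 regions of every library.

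Peaks of chromosomes 1 to 19 and X were merged on an overlap of 1 bp. Gene ends came from RefSeq GRCm38.p6, and strand, starts and sequences from its promoter table (250 bases before to 50 after the start), which was not used for chromosome 18. A planned share of intervals with several summits was void, since 0 intervals were listed more than once. Tests were exact permutations over libraries (3 against 3, or sign flips) in Python 3.11.15 with scipy 1.17.1. Named regions are the 15 best ranked, the 8 widest, those with extreme summit spread or factor difference, those with most genes, the closest pairs, those at the limit, and the 3 best of each list. Not every gene named by these rules is reported here. Members, lists and motifs were chosen with earlier results of these data known. On simulated data 100% of 400 planted gene-end regions were found, with 0 others. The planted peaks were centred on gene ends in every library and the others lay far from gene ends. This outcome was therefore set by the design, and it checks the code and not its behaviour on the real lists.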

Additional observations from a re-analysis of the deposited data

Results flagged for a closer look

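The strength rank of regions at the ends of several genes, minus that of regions at the end of 1 gene, went opposite ways in the factors: it was above 0 in each LEF1 library (2.402, 3.42 and 2.38 points) and below 0 in each TCF1 library (-1.02, -0.569 and -2.53 points). LEF1 minus TCF1 was 4.11 points (exact permutation test, two-sided p = 0.1, the smallest that 3 against 3 libraries allow). The split was picked for its opposite signs, which fix this p in advance.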

How the results depend on the processing

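Of 135 values under other settings, 104 were counted as unchanged, 22 fell short of the threshold of 0.05, 7 moved and 2 reversed. Numbers of regions and genes and the share with several genes were not judged by a p-value. The share counted as moved once outside its 95% interval. The numbers had a wider limit, and could change much yet count as unchanged. The number of genes did so without TCF1 replicate 3, at 5721 against 3935. In exact permutation tests, comparisons between the factors cannot go below p = 0.1, so they could not pass the threshold under any setting. Only the gene-end minus other differences could change side, so the 104 are no measure of how stable the results were. With lists of equal size there were 2168 regions and 2526 genes, and gene-end minus other regions came to -14.1 bp in width, 5.85 points in rank and 0.333 bp in summit distance, none past the threshold. Limits of 500 and 2000 bp gave 16.6% and 22.5% of regions with several genes, and counting all annotated genes, not only protein-coding ones, gave 29.6%; the width difference was -34.0 bp at 2000 bp and -31.5 bp with all genes, no longer past the threshold in either (exact sign-flip permutation test, p = 0.09375). Without TCF1 replicate 3 the LEF1 minus TCF1 width reversed to -37.8 bp and the gene-end minus other width to 3.4 bp. The cause was not tested. Leaving out each library in turn gave 3384 to 5165 regions, 3931 to 5721 genes and 17.7% to 19.5% with several genes. It gave widths of -37.8 to 96.0 bp (LEF1 minus TCF1) and -46.4 to 3.4 bp (gene-end minus other), ranks of 8.03 to 9.76 and 2.59 to 14.3 points, and shares inside the gene of -2.15 to -1.59 points. Summit distance differences were 1.58 to 3.42 bp (between minus within factors) and 1.30 to 2.30 bp (gene-end minus other). With 5 libraries the exact sign-flip permutation test cannot go below p = 0.0625, so these differences fall short by construction; without TCF1 replicate 3, rank and width were far above that limit (exact sign-flip permutation test, p = 0.375 and 0.875). By the numbers of the titles, deviations of same-numbered libraries of the 2 factors correlated at -0.00635, 0.0350 and 0.0608. Those of differently numbered libraries correlated at -0.0551 to 0.0276. Such values cannot settle whether the libraries were paired, and they were treated as unpaired. The library names carry other numbers, which the factors share once (LEF1 replicate 3 and TCF1 replicate 1, correlation -0.0210), too few for a block. With the replicate number as a block the LEF1 minus TCF1 values stayed at 46.7 bp, 9.17 points and -1.93 points, where an exact permutation test over 3 pairs cannot go below p = 0.25. Peak lists carry no read totals, so a missing peak in the shortest list may reflect its depth, which was not tested.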

Other observations

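Of 1005 miRNA hairpins in the RefSeq table, 20 overlapped gene-end regions, some of them only in part. Mir142, a miRNA abundant in blood cells, lay in the region at Tspoap1, with fold enrichments of 8.54 to 27.1 and a mean strength rank of 54.2%. Mir207 lay in the region at Dnaja1, with fold enrichments of 31.1 to 76.1 and a mean rank of 5.97%. Mir484 lay partly in the region at Marf1, with 8.64 to 19.6 and a mean rank of 74.5%. The fold enrichments are those of each region's strongest summits and not values at the hairpins. At Tspoap1 and Dnaja1 these summits lay more than 1000 bp from Mir142 and Mir207. The hairpins named were chosen after their values were seen.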
